A study of Mus musculus with 8 samples.

Results

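The regulators that set and maintain brown fat identity were followed in brown adipose tissue (BAT), the heat-producing fat depot of rodents. They are 10 genes of the 31053 in the count table, chosen by name: the lineage factors Prdm16, Ebf2, Zic1 and Lhx8, the coactivators Ppargc1a and Ppargc1b, the corepressor Nrip1, and the C/EBP family members Cebpa, Cebpb and Cebpd. All 10 were found by their Ensembl identifiers and all 10 passed the filter on low counts. BAT of 4 wild-type (WT) and 4 db/db mice, 8 weeks old, was profiled by bulk RNA-seq. The labels give the strain C57BL6/J for all 8 mice. The db/db mice carried 2 copies of the Lepr db allele on a B6.BKS(D) background, as the animal section of the study names it, and lack a working long form of the leptin receptor, which leads to overeating and obesity. Per the methods of the study all mice were male and were fasted before tissue collection. The study's sources disagree on whether both genotypes came from the same supplier and on the stock of the db/db mice, and nothing states that they were littermates, so a difference in origin was not tested.

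Brown adipocytes arise from precursors that also give rise to muscle, and PRDM16 together with the DNA-binding factor EBF2 directs them to the brown lineage. ZIC1 and LHX8 are classical markers of the interscapular brown depot. PGC-1α and PGC-1β, the products of Ppargc1a and Ppargc1b, carry no DNA-binding domain of the kind that selects targets and instead dock on nuclear receptors to drive mitochondrial and thermogenic genes, while RIP140, the product of Nrip1, docks on many of the same receptors and represses. The C/EBP factors act in fat cell formation, C/EBPβ and C/EBPδ early and C/EBPα later together with PPARγ. The question was which of these regulators were lower in obese BAT and which were not.

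Total counts per library ran from 2374079 to 3240074, and 30.7% to 37.6% of them came from mitochondrially encoded genes. Levels are given as CPM, the count of a gene relative to its library, scaled by the total over the filtered genes and the TMM factor of each library, and levels of different genes are not compared with each other. No library held a count of Lepr (0 in each), which leaves the genotype unchecked on its own transcript. One label names the stromal vascular fraction, the part of fat tissue without adipocytes, yet Adipoq, an adipocyte hormone, averaged 1534 CPM in WT and 1909 CPM in db/db, and Ucp1, the uncoupling protein of brown adipocytes, averaged 2248 and 1429 CPM. The libraries therefore held adipocyte RNA and are treated as whole tissue, as the study's methods describe them. In bulk tissue, fewer cells of a type and less RNA per cell cannot be told apart. Nothing in the sources states how same-numbered mice were related, and the p-values measure the spread between these 8 samples.

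The promoters of Ppargc1a and Cebpb are shown because both genes are textbook targets of the adrenergic cAMP pathway, through which cold and nerve signals act on brown adipocytes. Both windows are the 250 bases before the annotated start, 5′ to 3′ on the gene's strand, from RefSeq on GRCm38.p6. Ppargc1a lies at chr5:51567726-51567975 on the minus strand and Cebpb at chr2:167688665-167688914 on the plus strand. Capitals mark the half-site of the cAMP response element, TGACG or its reverse complement CGTCA.
Ppargc1a: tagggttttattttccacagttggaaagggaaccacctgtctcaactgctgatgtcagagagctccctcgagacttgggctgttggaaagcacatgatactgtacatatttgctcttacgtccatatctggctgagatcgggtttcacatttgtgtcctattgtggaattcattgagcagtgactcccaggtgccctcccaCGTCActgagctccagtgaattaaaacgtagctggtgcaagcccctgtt
Cebpb: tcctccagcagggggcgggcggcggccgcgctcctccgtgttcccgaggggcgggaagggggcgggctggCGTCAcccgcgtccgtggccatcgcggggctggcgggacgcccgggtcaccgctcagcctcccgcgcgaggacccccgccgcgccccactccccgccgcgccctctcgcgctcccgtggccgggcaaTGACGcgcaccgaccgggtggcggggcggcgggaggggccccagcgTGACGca
The Ppargc1a window held 1 half-site, beginning 49 bases before the start. The Cebpb window held 3, beginning 180, 53 and 7 bases before it. Of all 32851 promoter windows of this length, 17.8% held at least 1 half-site on either strand. RefSeq promoter windows were matched for 7 of the 10 regulators, with 2 windows for Nrip1, and those of Prdm16, Zic1, Lhx8, Nrip1 and Cebpa held no half-site. None of the 8 windows held the C/EBP motif TTGCNNAA (9.56% of all windows) or the ERR half-site AAGGTCA (4.08%), each searched on both strands. These are letter matches in short windows and not measured binding sites.

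Both coactivators were lower in db/db BAT, as was one of the 4 lineage factors, Ebf2, whereas Cebpd was higher. In the edgeR quasi-likelihood test with Benjamini-Hochberg adjustment over all 9264 genes tested, 3 of the 10 regulators were lower, 1 was higher and 6 were not called at an adjusted p of 0.05. Across all genes tested, 27.7% were called, 11.9% lower and 15.8% higher. With 10 genes, 4 calls beside that background are no result about the regulators as a group. The median log2 fold change (db/db over WT) of the 10 regulators was -0.21, against 0.01 over all genes tested. CPM of the genotypes did not overlap for 3 regulators, Ppargc1a, Ppargc1b and Cebpd, and for 28.1% of all genes tested. The plot of regulator levels by library shows these 3 separations beside the overlap of the other 7.

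**Figure D1:**
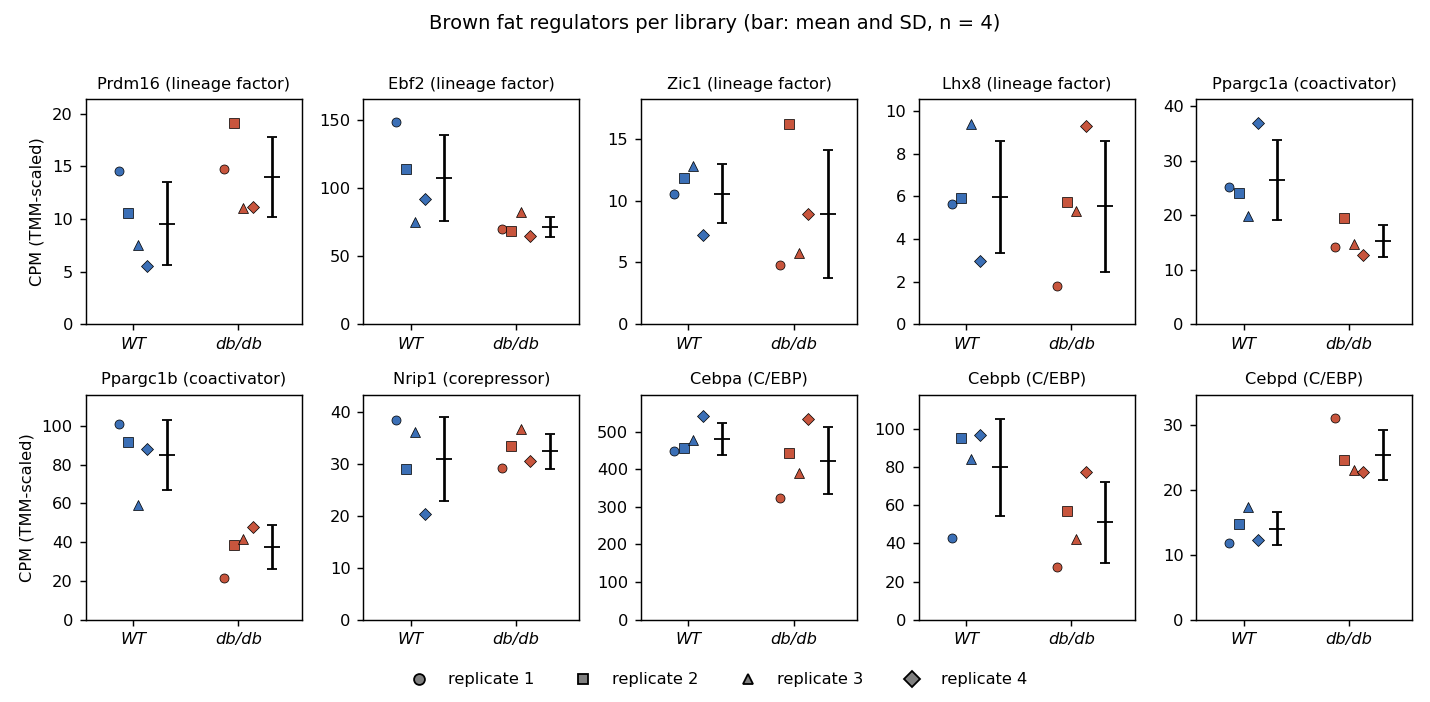
CPM of each of the 10 regulators (y axis, from 0, a separate scale for each gene) in the WT and db/db libraries, with 1 symbol per replicate number and a bar for the mean and SD of 4 libraries. All 4 db/db libraries lay below all WT libraries for Ppargc1a and Ppargc1b and above them for Cebpd, while Zic1, Lhx8 and Nrip1 overlapped broadly.

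Ppargc1b (ENSMUSG00000033871, chromosome 18, 61298136 to 61400431, mm10, minus strand) had the largest fold change of the 10. PGC-1β promotes mitochondrial biogenesis and oxidative metabolism, partly in place of PGC-1α. The 4 WT libraries held 101, 91.6, 59.0 and 88.3 CPM of Ppargc1b, and the 4 db/db libraries 21.7, 38.5, 41.7 and 48.0 CPM. The highest db/db library was thus below the lowest WT library, and db/db replicate 1 was the lowest of all. The mean of 4 libraries went from 85.0 ± 18.2 to 37.5 ± 11.2 CPM (± SD), a log2 fold change of -1.19 (SE 0.22, 95% interval -1.65 to -0.73, adjusted p = 0.0005 in edgeR). The call was kept when any 1 of the 8 libraries was left out, with log2 fold changes between -1.35 and -0.998. It was lost with the skeletal muscle covariate described below (-0.68, adjusted p = 0.228 in edgeR).

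Ppargc1a (ENSMUSG00000029167, chromosome 5, 51454250 to 51567726, minus strand), the cold-inducible coactivator of Ucp1 and of mitochondrial genes, fell as well. Its WT libraries held 25.1, 24.1, 19.9 and 36.9 CPM, and its db/db libraries 14.1, 19.4, 14.6 and 12.6 CPM. These groups were separated by a narrow margin, between db/db replicate 2 and WT replicate 3. The mean was 26.5 ± 7.30 CPM against 15.2 ± 2.92 (WT against db/db, SD, n = 4 each), a log2 fold change of -0.79 (SE 0.23, 95% interval -1.28 to -0.31, adjusted p = 0.0158 in edgeR). The call rested in part on WT replicate 4, the highest library. Without it the log2 fold change was -0.60 and the adjusted p 0.0732. Raw counts of Ppargc1a were low, from 33 to 87 per library, compared with 72 to 250 for Ppargc1b.

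Among the lineage factors, Ebf2 (ENSMUSG00000022053, chromosome 14, 67233292 to 67430918, plus strand) was the one that passed the test. EBF2 opens chromatin at brown-selective genes, and marks precursors committed to the brown lineage. WT libraries held 149, 114, 75.5 and 92.5 CPM, and db/db libraries 70.1, 68.7, 82.4 and 64.7 CPM. Of the 4 db/db libraries 3 were below every WT library, and db/db replicate 3 lay above WT replicate 3. The spread was wide in WT and narrow in db/db, with means of 108 ± 31.6 and 71.5 ± 7.65 CPM (SD, n = 4 each). The log2 fold change was -0.59 (SE 0.18, 95% interval -0.97 to -0.21, adjusted p = 0.0203 in edgeR). Leaving out WT replicate 1, the highest library, gave -0.42 with an adjusted p of 0.0760. The call was kept only narrowly without WT replicate 2 (adjusted p = 0.0489), db/db replicate 2 (0.0482) or db/db replicate 4 (0.0495), all in edgeR. Exons of Ebf2 share 6.12% of their bases with Gm10860 on the opposite strand.

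Prdm16 (ENSMUSG00000039410, chromosome 4, 154316125 to 154636873, minus strand), the zinc finger coregulator whose loss in precursors turns them from brown fat toward muscle, was not lower in db/db. Its WT libraries held 14.6, 10.6, 7.52 and 5.52 CPM, and its db/db libraries 14.7, 19.1, 11.1 and 11.2 CPM. All 4 db/db libraries were above the WT mean, and 2 of them were above every WT library. The means were 9.54 ± 3.94 CPM against 14.0 ± 3.79 (WT against db/db, SD, n = 4 each), and the log2 fold change was 0.56 (SE 0.31, 95% interval -0.08 to 1.21, adjusted p = 0.188 in edgeR). The lower bound of that interval corresponds to 0.944 times the WT level, so a fall as large as that estimated for either coactivator lies outside it under this scaling. Counts were 13 to 60 per library. Prdm16 stayed uncalled in every one of the 18 alternative fits, and its log2 fold change was above 0 in each, from 0.14 to 0.995.

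Zic1 (ENSMUSG00000032368, chromosome 9, 91358058 to 91365810, minus strand), a zinc finger factor, had the widest relative spread of the 10 in db/db (57.9% of its mean). WT libraries held 10.5, 11.8, 12.8 and 7.22 CPM, and db/db libraries 4.81, 16.2, 5.76 and 8.93 CPM. The db/db group reached both below and above the whole WT group. The log2 fold change was -0.23 (SE 0.36, 95% interval -0.99 to 0.52, adjusted p = 0.674 in edgeR). In the same way Lhx8 (ENSMUSG00000096225, chromosome 3, 154306294 to 154330659, minus strand), a LIM homeobox factor, held 5.67, 5.91, 9.39 and 2.97 CPM in WT and 1.80, 5.73, 5.32 and 9.30 CPM in db/db. Its log2 fold change was -0.14 (SE 0.45, 95% interval -1.10 to 0.82, adjusted p = 0.854 in edgeR), and its raw counts were 6 to 25 per library. For both genes the interval includes falls as large as that of Ebf2 as well as rises, so a fall of that size was not detectable with the spread between these libraries.

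Nrip1 (ENSMUSG00000048490, chromosome 16, 76287400 to 76373827, minus strand), whose product opposes the coactivators on shared receptors, had nearly equal means. WT libraries held 38.4, 29.1, 36.1 and 20.4 CPM, and db/db libraries 29.2, 33.4, 36.8 and 30.5 CPM. All db/db values lay within the WT range. The means were 31.0 ± 8.12 and 32.5 ± 3.38 CPM (SD, n = 4 each), with a log2 fold change of 0.06 (SE 0.20, 95% interval -0.36 to 0.48, adjusted p = 0.858 in edgeR). On the linear scale the interval ran from 0.779 to 1.395 times the WT level.

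Of the 3 C/EBP genes 1 was called. Cebpd (ENSMUSG00000071637, chromosome 16, 15887286 to 15891031, plus strand), an early adipogenic factor that inflammatory signals also induce in many tissues, was higher in db/db. WT libraries held 11.7, 14.8, 17.3 and 12.3 CPM, and db/db libraries 31.0, 24.5, 23.0 and 22.7 CPM. Every db/db library was above every WT library, with db/db replicate 1 the highest. The mean rose from 14.0 ± 2.54 to 25.3 ± 3.87 CPM (± SD of 4 libraries), a log2 fold change of 0.85 (SE 0.21, 95% interval 0.40 to 1.30, adjusted p = 0.0059 in edgeR). The call was kept without any 1 library, at 0.73 to 0.95. In the refits described below it was lost under pan-adipocyte scaling (0.50, adjusted p = 0.148) and with the muscle covariate (0.58, adjusted p = 0.416), both in edgeR. Exons of Cebpd share 15% of their bases with Spidr on the opposite strand, and the strand setting of the counting is unknown.

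Cebpb (ENSMUSG00000056501, chromosome 2, 167688915 to 167690418, plus strand), which partners with PRDM16 in brown fat specification and is induced by cAMP, had a lower mean in db/db without passing the test. WT libraries held 42.9, 95.4, 84.2 and 96.8 CPM, and db/db libraries 27.7, 56.9, 42.1 and 77.4 CPM. In each genotype replicate 1 was the lowest library, and WT replicate 1 lay within the db/db range. The means were 79.8 ± 25.2 and 51.0 ± 21.2 CPM (SD, n = 4 each), with a log2 fold change of -0.65 (SE 0.27, 95% interval -1.22 to -0.08, adjusted p = 0.0850 in edgeR). The gene was called lower without WT replicate 1 (log2 fold change -0.87, adjusted p = 0.0179) and without db/db replicate 4 (-0.92, adjusted p = 0.0160). It was also called when the replicate number was added to the fit as a block (-0.67, adjusted p = 0.00512). With the skeletal muscle covariate described below, the gene was at -0.35 and not called (adjusted p = 0.694 in edgeR). Its exons share 20.7% of their bases with Tmem189 on the opposite strand, so part of its count is uncertain.

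Cebpa (ENSMUSG00000034957, chromosome 7, 35119293 to 35121928, plus strand), the factor that holds the mature adipocyte program together with PPARγ, was the most deeply counted of the 10, with 881 to 1437 counts per library. WT libraries held 448, 456, 478 and 542 CPM, and db/db libraries 325, 442, 391 and 535 CPM. Although 3 of 4 db/db libraries were below every WT library, db/db replicate 4 lay near the top of the WT range. The means were 481 ± 42.6 and 423 ± 88.6 CPM (SD, n = 4 each), with a log2 fold change of -0.19 (SE 0.15, 95% interval -0.50 to 0.13, adjusted p = 0.391 in edgeR). The interval corresponds to 0.707 to 1.09 times the WT level.

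Whether one regulator shifted against another was asked within each library, where the scaling cancels out nearly completely. For 5 pairs, log2 CPM (prior count 2) of one gene was subtracted from that of the other, and the 4 db/db values were compared with the 4 WT values by exact permutation (two-sided, over 70 splits, smallest possible p 0.0286). The ratio of Ppargc1a to Prdm16 was 0.75, 1.13, 1.32 and 2.59 (log2) in WT and -0.06, 0.02, 0.38 and 0.17 in db/db. The genotypes did not overlap, and the mean difference was -1.32 (exact permutation p = 0.0286, 0.0714 after adjustment over the 5 pairs). The ratio of Ppargc1b to Prdm16 was 2.73, 3.03, 2.85 and 3.83 in WT and 0.53, 0.98, 1.84 and 2.03 in db/db. Here too the genotypes did not overlap, with a mean difference of -1.76 (exact permutation p = 0.0286, adjusted 0.0714). Both p-values are the smallest that 4 against 4 libraries allow, and neither passed 0.05 after adjustment. Each coactivator already separated the genotypes by its own CPM, so these separations largely restate the single-gene values. The highest ratio of each pair was in WT replicate 4, which held 13 counts of Prdm16.

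For the ratios to Ebf2, the differences between the genotypes were smaller. The ratio of Ppargc1b to Ebf2 differed by -0.65 (exact permutation p = 0.0571, adjusted 0.0952), and that of Ppargc1a to Ebf2 by -0.21 (p = 0.60, adjusted 0.60, exact permutation), with overlapping genotypes in both. The ratio of Cebpa to Cebpb differed by 0.46 (exact permutation p = 0.171, adjusted 0.214). None of the 5 ratios passed after adjustment. With 4 against 4 libraries, at least 3 of the 5 pairs would have had to reach the smallest possible p for any to pass, so the adjusted values of the Prdm16 ratios say little about whether they differ. Both coactivators were lower against Prdm16 in all 4 db/db libraries than in any WT library, but neither shift passed the adjusted test. Prdm16 itself was not called (log2 fold change 0.56, adjusted p = 0.188 in edgeR).

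**Figure D2:**
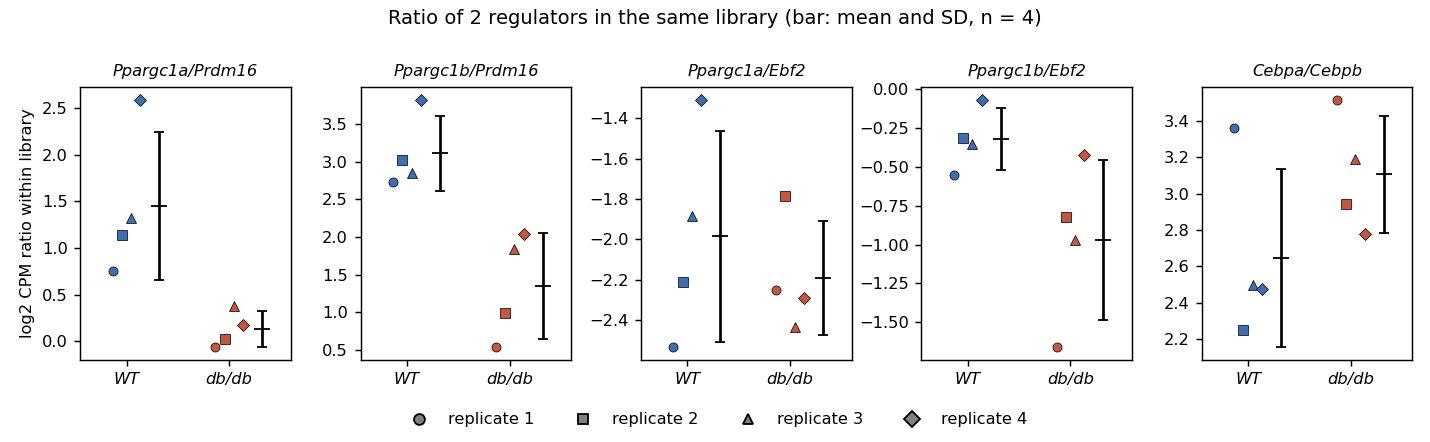
Difference in log2 CPM between 2 regulators of the same library (y axis, a separate scale for each pair) for WT and db/db, with 1 symbol per replicate number and a bar for the mean and SD of 4 libraries. Both coactivators were lower against Prdm16 in all db/db libraries than in any WT library, whereas the 3 other ratios overlapped between the genotypes. No ratio passed after adjustment.

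Markers of several cell types differed between the genotypes, and their values stand here beside those of the regulators. The summed level of 5 brown adipocyte markers was 8856 to 10503 CPM in WT and 3689 to 6734 in db/db, with all 4 tested markers lower, whereas that of 6 pan-adipocyte markers was 12543 to 18570 in WT and 17276 to 22009 in db/db, with 2 higher and 1 lower. White adipocyte markers summed to 106 to 321 CPM in WT and 1880 to 2895 in db/db, with 4 of 5 tested markers higher and Wt1 at 0 counts in all libraries. Skeletal muscle markers, 20 in all, summed to 473 to 1766 CPM in WT and 2592 to 13089.5 in db/db, and 19 were higher. The highest muscle sum was in db/db replicate 1, which was also the lowest library for Ppargc1b, Cebpa, Cebpb, Zic1 and Lhx8 and the highest for Cebpd. Without that library the count of regulators was the same, 3 lower and 1 higher.

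Markers of other cells also differed. Macrophage markers summed to 117 to 149 CPM in WT and 567 to 985 in db/db, with 8 of 9 tested higher. Progenitor and fibroblast markers summed to 469 to 587 CPM in WT and 921 to 1915 in db/db, with all 6 higher, and endothelial markers to 228 to 308 CPM in WT and 174 to 205 in db/db, with 2 of 5 lower. Schwann cell and neuron markers summed to 4.88 to 21.4 and 13.4 to 51.4 CPM, with 1 of 2 tested higher. T and B lymphocyte markers stayed at or under 9.02 CPM, none was tested and Cd79a had 0 counts. Both coactivators and several C/EBP genes are also used by muscle, macrophages or precursors, and the part of these cells in the results was not tested beyond the refits that follow.

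**Figure D3:**
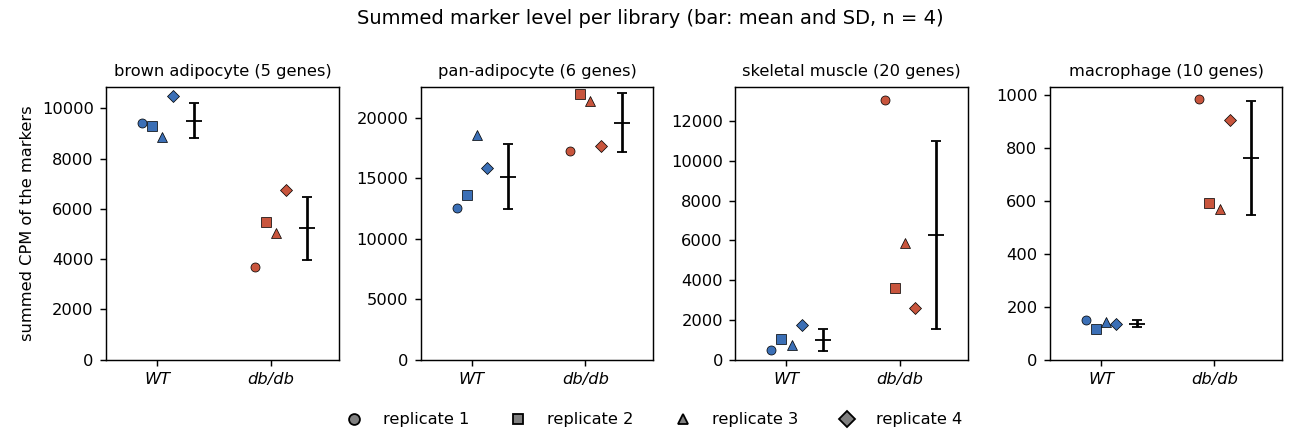
Summed CPM (y axis, from 0) of brown adipocyte, pan-adipocyte, skeletal muscle and macrophage markers in WT and db/db libraries, with 1 symbol per replicate number and a bar for the mean and SD of 4 libraries. Brown adipocyte sums were lower and muscle and macrophage sums higher in every db/db library than in any WT library, and db/db replicate 1 had the highest muscle sum.

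The regulators were refitted with the libraries scaled to the summed counts of the 6 pan-adipocyte genes rather than to the whole transcriptome. Fabp4 was a large part of that sum, at 7789 CPM in WT and 12193 CPM in db/db on average. Fabp4 and Plin1 were themselves called higher in db/db under TMM. The study also lists Fabp4 among genes of lipid-associated macrophages, so this fit is no measure of the level per adipocyte. This scaling put the median log2 fold change of all genes at -0.37, compared with 0.01 under TMM, and 24.6% of its calls were higher against 57.1% under TMM. Under it 5 regulators were lower and none was higher. Ppargc1b stood at -1.62, Ppargc1a at -1.19 and Ebf2 at -1.03, and Cebpb (-1.0, adjusted p = 0.00705) and Cebpa (-0.56, adjusted p = 0.0432) were added in the same edgeR test. Cebpd stood at 0.50 and lost its call (adjusted p = 0.148), and Prdm16 was at 0.14 (adjusted p = 0.789). Relative to that median, Cebpd was at 0.87 against 0.84 under TMM, Cebpa at -0.19 under both, and Prdm16 at 0.51.

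A fit with the skeletal muscle score of each library as a covariate called 653 genes instead of 2568. The score itself is built from markers whose summed level did not overlap between the genotypes. No regulator passed in this fit. The log2 fold changes were -1.03 for Ppargc1a (adjusted p = 0.115), -0.68 for Ppargc1b (0.228), -0.40 for Ebf2 (0.531) and 0.58 for Cebpd (0.416), all in edgeR. These 4 genes kept the sign of their change, and the 95% intervals before adjustment lay below 0 for Ppargc1a (-1.82 to -0.25) and Ppargc1b (-1.33 to -0.03). Zic1 (0.71), Lhx8 (1.35) and Cebpa (0.07) changed sign without being called.

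**Figure D4:**
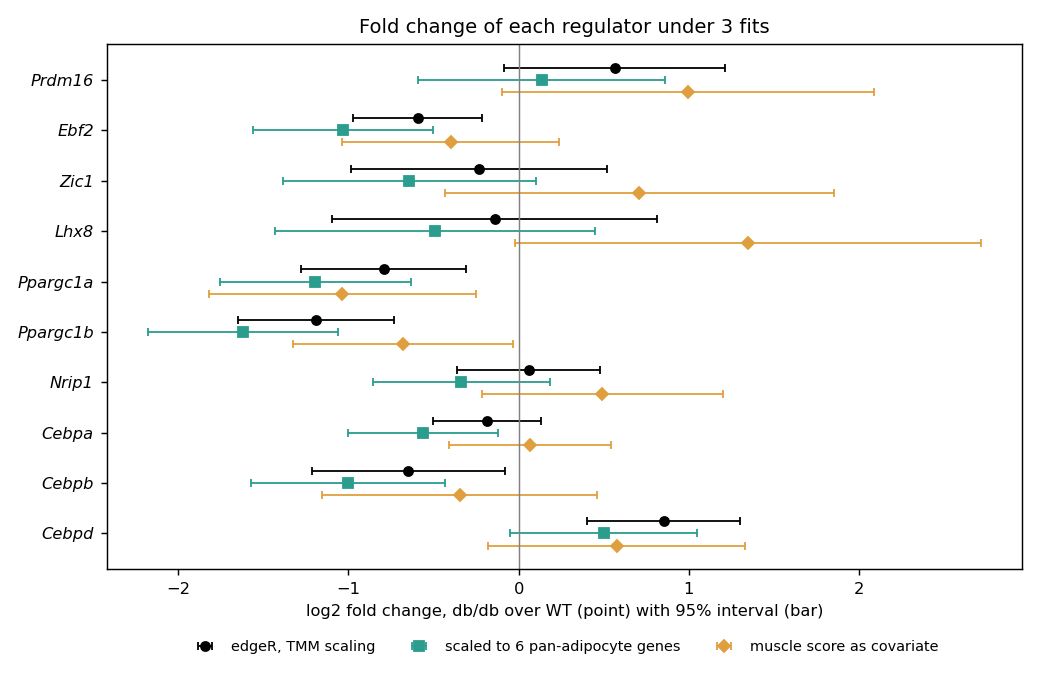
Log2 fold change, db/db over WT (x axis), of each regulator (y axis) under TMM scaling, under scaling to 6 pan-adipocyte genes and with the muscle score as a covariate, with 95% intervals before adjustment as bars. Both coactivators lay below 0 in all 3 fits. Prdm16 lay above 0 in all 3, with an interval that included 0 each time. Zic1, Lhx8 and Cebpa changed sign with the muscle covariate. Nrip1 was below 0 under pan-adipocyte scaling, and at 0.04 relative to the median of all genes in that fit.

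Other transcription factors of the brown and adipogenic programs, 27 by name, include several partners of PGC-1. Of the 26 tested, 5 were lower, 1 was higher and 20 were not called, with a median log2 fold change of -0.16, while 11.9% of all genes tested were lower and 15.8% higher. Irf4, the factor that partners with PGC-1α and is induced by fasting and cold, fell furthest, from 38.0 ± 20.2 to 4.09 ± 0.721 CPM (log2 fold change -3.22, SE 0.39, adjusted p in edgeR 9.5e-06). Ppara, the fatty acid receptor that uses PGC-1 coactivators, fell by 1.46 on the log2 scale. Esrra, which binds both coactivators and drives mitochondrial genes, fell by 0.80, and Thrb, a thyroid hormone receptor, by 0.76. The fifth, Cebpg (-0.64), was named after its value was seen, and it lost its call without any of WT replicates 3 and 4 and db/db replicates 1 and 3. Ebf1, the family member of Ebf2 found in white as well as brown precursors, rose by 0.998 from 161 ± 30.6 to 322 ± 76.2 CPM (SD, n = 4 each), in the opposite direction to Ebf2. Ebf1 was not called under scaling to the pan-adipocyte genes, which gave 10 of this list lower and 0 higher. With the muscle covariate Irf4 was still called lower and Ebf1 higher, and no other gene of this list kept its call. The others stayed below 0, with log2 fold changes of -0.99 for Esrra, -0.96 for Ppara, -0.68 for Thrb and -0.51 for Cebpg. Pparg, the master factor of adipogenesis, was at 88.9 ± 24.5 and 67.8 ± 36.3 CPM and was not called (-0.39, adjusted p = 0.341).

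Among 17 antagonists and corepressors of the brown program 13 were tested, of which 1 was lower, 1 was higher and 11 were not called, with a median of -0.06. Both counts stand beside 27.7% of all genes called in either direction and are no result about the group. Zfp423, which represses Ebf2 and keeps white adipocytes from becoming thermogenic, rose from 4.90 ± 3.09 to 11.7 ± 4.85 CPM (log2 fold change 1.23, SE 0.43, adjusted p = 0.0388 in edgeR). Its genotypes overlapped. It lost the call narrowly in DESeq2 (1.21, adjusted p = 0.0537) and under total count scaling (1.23, adjusted p = 0.0501 in edgeR), and lost it at 0.90 under pan-adipocyte scaling and at 0.35 with the muscle covariate. Without WT replicate 1 or 4 or db/db replicate 1 or 3 it was not called either, at 0.95 to 1.13. Sin3a, a scaffold of histone deacetylase complexes, fell by 0.56 on the log2 scale and was not called without WT replicate 4, db/db replicate 2 or db/db replicate 3, nor with the muscle covariate, where it stood at -0.54, -0.54, -0.52 and -0.66. Ncor1, a corepressor of nuclear receptors, was at -0.37 and just outside the threshold (adjusted p = 0.0523).

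Genes selective for brown adipocytes include known targets of these regulators. Of the 13 brown-selective effector genes 9 were tested and 8 were lower, with a median of -1.03, where 11.9% of all genes tested were lower. Mpzl2 (-1.82), the lipid droplet protein gene Cidea (-1.24), the adrenergic receptor gene Adrb3 (-1.22), the potassium channel gene Kcnk3 (-1.12) and the mitochondrial gene Letmd1 (-1.03) fell, as did Ucp1 (-0.65) and the respiratory chain genes Cox8b (-0.63) and Cox7a1 (-0.49). Otop1, a proton channel, was at 0.35 and not called (adjusted p = 0.314). Without WT replicate 4 the number lower was 6, Ucp1 and Cox7a1 losing their calls, and Ucp1 was not called without db/db replicate 3 nor Cox7a1 without WT replicate 2. With the muscle covariate Cidea, Kcnk3 and Mpzl2 were the 3 still called. The log2 fold change of Adrb3 in that fit was -1.17 and that of Letmd1 -0.75, whereas Ucp1 (-0.39), Cox8b (-0.24) and Cox7a1 (-0.22) were closer to 0. Exons of Mpzl2 and Adrb3 share 30.7% and 24.8% of their bases with other genes. Elovl3, Dio2, Cpt1b and Bmp8b were too low to be tested, with at most 20 counts in any library. Exons of Cpt1b share 81.4% of their bases with Gm44502 on the same strand, so its counts of 0 or 1 may not reflect its level. Several of these genes are brown adipocyte markers, so their fall and that of the marker sum are one observation.

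The mitochondrial genes taken as PGC-1 responsive had a median closer to that of all genes. Of 14, all tested, 6 were lower and 8 were not called, with a median of -0.30, beside 11.9% lower among all genes tested. With the muscle covariate 0 were lower, and with pan-adipocyte scaling 12. The largest falls were in Slc25a20 (-0.74), which carries acylcarnitines into mitochondria, Acadvl (-0.58), which starts the oxidation of long fatty acids, Sdha (-0.56) of complex II and Ndufs1 (-0.54) of complex I. Citrate synthase (Cs, -0.16), Atp5b (-0.05) and cytochrome c (Cycs, -0.29) were not called. Exons of Acadvl share 42.9% of their bases with other genes. No member was called higher. Muscle is rich in the same mitochondrial genes, its marker sums were higher in every db/db library, and its part in these values was not tested.

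Adipocyte genes under C/EBPα and PPARγ split in both directions, with 6 of 12 lower, 4 higher and 2 not called (median -0.35), beside 11.9% lower and 15.8% higher among all genes tested. Cfd, the adipsin gene, fell by 2.66 on the log2 scale, the insulin receptor gene Insr by 0.94, the lipid synthesis gene Agpat2 by 0.92 and the glyceroneogenic gene Pck1 by 0.83. With the muscle covariate Cfd and Agpat2 kept their calls, and the other 4 falls lost theirs, Insr at -0.98 (adjusted p = 0.111 in edgeR) and Pck1 at -0.88 (adjusted p = 0.180) among them. Lep, the leptin gene, rose from 10.3 ± 3.15 to 460 ± 96.0 CPM (± SD of 4 libraries), a log2 fold change of 5.47, and Plin1 (0.79), Fabp4 (0.65) and Cd36 (0.49), genes of lipid storage and uptake, rose too. Of these 4 rises that of Lep alone kept its call under pan-adipocyte scaling, for which Plin1 and Fabp4 are themselves reference genes, and with the muscle covariate. With the covariate Plin1 was at 0.62, Fabp4 at 0.59 and Cd36 at 0.39, and under the scaling they were at 0.42, 0.30 and 0.11. Cd36 (0.43) and Fabp4 (0.58) also lost the call without WT replicate 2. Fabp4 lost it as well without WT replicate 1 (0.47), WT replicate 4 (0.64), db/db replicate 2 (0.52) or db/db replicate 3 (0.61). Of 6 tested acute-phase genes that C/EBPβ and C/EBPδ are known to drive, 4 were higher and 1 was lower, with a median of 1.32, beside the same shares over all genes. Serpina3n (3.0), the haptoglobin gene Hp (2.42), Saa3 (1.83) and Orm1 (0.80) rose, and complement C3 (-1.27) fell. Pan-adipocyte scaling and the muscle covariate each left Hp and Serpina3n as the 2 genes of this list called higher. With the covariate Saa3 was at 2.24 and Orm1 at 0.75, and under the scaling they were at 1.48 and 0.46. Saa3 had at most 7 counts in a WT library and was not called without WT replicate 4, and Lcn2 and Il6 were not tested. Macrophage sums were higher in the same 4 db/db libraries, and the study lists Fabp4, Cd36 and Lpl among genes of lipid-associated macrophages. The part of macrophages in these genes and in the acute-phase genes was not tested.

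**Figure D5:**
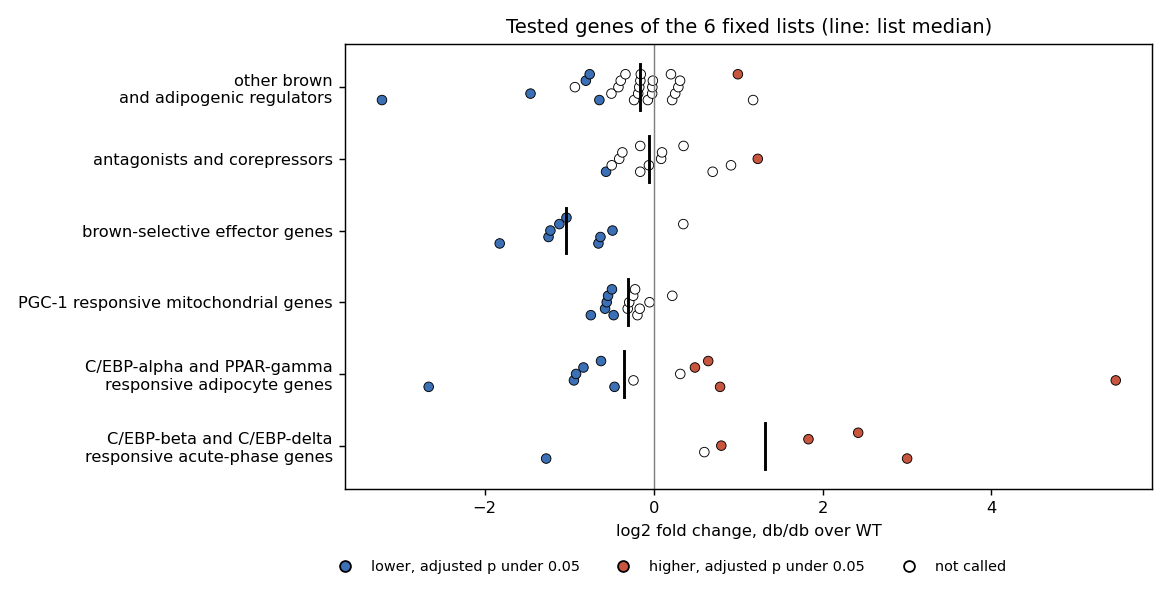
Log2 fold change, db/db over WT (x axis), of the tested genes of 6 lists of related factors and target genes (y axis), with filled points for genes at an adjusted p under 0.05 and a line at each list's median. Of the 6 list medians that of the brown-selective effector genes was the lowest (-1.03) and that of the antagonists the nearest to 0 (-0.06), and the lowest single genes were Irf4 and Cfd.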

How the data were processed

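Per the methods of the study, the authors sequenced mRNA libraries through a commercial service, trimmed and aligned the reads to mm10, and deposited raw counts per Ensembl gene. The methods name bbduk, STAR and HTSeq-count, whereas the submitters' processing notes name Trimmomatic and HISAT2, as does the study's resource list. Which of them made the counts could not be settled. Both the methods and the notes name DESeq2. Strand setting and use of molecular identifiers are not given in the sources used here, so PCR copies may be counted and overlapping genes are uncertain. The log2 normalised table and the sample sheet were not used.

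Of 31053 genes, 30934 were matched to a symbol and 119 were not. Genotype and replicate came from the sample titles. Genes were filtered by filterByExpr (minimum count 10, total 15), scaled by TMM and tested with edgeR 4.0.16 (quasi-likelihood, genotype only) in R 4.3.3, with Benjamini-Hochberg adjustment over 9264 genes at 0.05. Standard errors came from the F statistic. The procedure was tested on simulated data. Alternatives were DESeq2 1.42.0, limma-voom (3.58.1), 4 scalings, 2 filters, a replicate block, a muscle covariate and leaving out each library. A separate test for regulators under the filter was not needed, since all 10 passed. Named genes were the 10 regulators, every tested brown effector gene and, from each other list, up to 4 called genes in each direction with the largest change. A few other list members named with their values were chosen after these were seen: Pparg, Ncor1, Cs, Atp5b, Cycs and Cebpg. Promoters came from RefSeq (GRCm38.p6). The members and lists were chosen with earlier results of these data known. A floor for counting error was set in advance at 3 counts, or 0.926 to 1.26 CPM of the library total. Figures were drawn with matplotlib 3.10.9.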

Additional observations from a re-analysis of the deposited data

Results flagged for a closer look

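In 114 groups of 4 libraries, covering the regulators, the named genes and the marker sums, 6 held a library that stood apart by Dixon's criterion, and chance gives about 5.7. None of the 6 was one of the 10 regulators. Irf4 was lowest in db/db replicate 1, at 3.01 CPM, where the rest of its genotype held 4.43 to 4.46. Adrb3 was highest in the same library, at 31.0 CPM against 20.4 to 21.9, as were the T and B lymphocyte markers, at 9.02 CPM against 0 to 0.887. Db/db replicate 3 stood apart for Thrb, at 33.7 CPM against 26.4 to 27.4, and for Cfd, at 899 CPM against 387 to 467. Letmd1 was lowest in WT replicate 3, at 241.6 CPM against 366 to 374.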

How the results depend on the processing

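The 3 falls (Ppargc1a, Ppargc1b, Ebf2) and the rise of Cebpd kept their direction in all alternatives run, and DESeq2, limma-voom and RLE, upper quartile and total count scaling changed no call of a regulator. The causes of the changes that follow were not tested.

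Scaling to pan-adipocyte genes gave 5 regulators lower and 0 higher, with Cebpa at -0.56, Cebpb at -1.0, Cebpd at 0.50 and Nrip1 at -0.34 (0.04 relative to the median of all genes, which was at -0.37). Among the lists it gave 10 other regulators lower and 0 higher, 4 antagonists lower and 0 higher, 12 PGC-1 responsive genes lower, and 1 C/EBPα responsive and 2 acute-phase genes higher. The muscle covariate gave 653 genes and 0 regulators lower, 0 higher and 10 not called. Prdm16 was at 0.995, Ebf2 at -0.40, Zic1 at 0.71, Lhx8 at 1.35, Ppargc1a at -1.03 and Ppargc1b at -0.68. Nrip1 was at 0.49, Cebpa at 0.066, Cebpb at -0.35 and Cebpd at 0.58. The covariate left 1 other regulator, 0 antagonists, 3 brown effector, 0 PGC-1 responsive and 2 C/EBPα responsive genes lower, and 0 antagonists, 1 C/EBPα responsive and 2 acute-phase genes higher. Testing every gene with at least 1 count (16410 genes) called Cebpb lower (-0.69) and gave 2 other regulators higher and 2 antagonists lower. DESeq2 gave 2 antagonists lower and 0 higher. Lhx8 had no value with at least 10 counts in every library.

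With 1 library left out, ranges were -0.75 to -0.42 for Ebf2, -0.71 (without db/db replicate 2) to -0.015 (without db/db replicate 1) for Zic1, -0.32 (without db/db replicate 4) to -0.08 (without db/db replicate 1) for Cebpa, -0.51 to 0.17 for Lhx8, -0.94 to -0.60 for Ppargc1a, -0.11 to 0.16 for Nrip1, -0.92 to -0.44 for Cebpb, and -0.39 to 0.019 for the ratio of Ppargc1a to Ebf2, which changed sign without WT replicate 4. Lhx8 changed sign without WT replicate 3 (0.15) and db/db replicate 1 (0.17), and Nrip1 without WT replicate 4 (-0.11) and db/db replicate 3 (-0.01). Lists ranged from 1 to 2 other regulators higher, 0 to 2 antagonists lower, 0 to 1 higher, and 2 to 4 C/EBPα responsive genes higher, the lowest without WT replicate 2.

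Same-numbered libraries of the genotypes deviated together with correlations of 0.04, 0.05, -0.08 and -0.01, and 2 of 4 WT libraries correlated best with their own number, and nothing in the sources says that a number marks related mice. The numbers were therefore not treated as pairs, which does not show that no relation exists. The replicate block gave 2557 genes and called Cebpb (-0.67), and changed no other call of a regulator. Prdm16, Zic1 and Lhx8 had 6 to 60 counts per library, and the share of counting error in their spread was not tested.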
